A study of Homo sapiens with 12 samples.

Results

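The 10 genes followed here code for the enzymes that make serine (PHGDH, PSAT1 and PSPH), convert it to glycine (SHMT1 and SHMT2), carry its carbon through mitochondrial folate (MTHFD2, MTHFD1L and ALDH1L2) and make proline (PYCR1 and ALDH18A1). The members were taken by gene symbol, as every probe that the array annotation gives to these 10 symbols, which came to 16 of 47323 probes. A probe passed as expressed when it was detected (detection p-value under 0.01 against the array's negative controls) on all 3 arrays of at least 1 group, and 13 of the 16 probes passed. These stood for 8 of the 10 members among 9696 genes tested. PHGDH and ALDH1L2 did not pass in the probe signals.

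Cells build serine from a glycolytic intermediate: PHGDH oxidises 3-phosphoglycerate, PSAT1 transfers an amino group from glutamate and PSPH removes the phosphate. Serine then gives a carbon unit to folate and becomes glycine, in the cytosol by SHMT1 and in mitochondria by SHMT2, and the mitochondrial enzymes pass that unit on as formate for nucleotide synthesis. ALDH18A1 and PYCR1 are the first and last enzymes of proline synthesis from glutamate. Many of these genes are known targets of ATF4, the transcription factor of the integrated stress response.

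The gastric cancer (GC) lines AGS and MKN45 were grown in RPMI1640 medium and treated for 36 h, as the labels state, with DMSO, the solvent control, or with verteporfin (VP), a porphyrin known as a photosensitiser and as an inhibitor of the binding of YAP to TEAD. Total RNA was hybridised to Illumina HumanHT-12 V4 arrays, 3 arrays in each of 4 groups (AGS with DMSO, AGS with VP, MKN45 with DMSO, MKN45 with VP). The methods give a longer treatment than the labels, no source used here states the VP dose of the arrays, and each line is a single established line of epithelial tumour cells. Since no source used here says whether replicate arrays are separate cultures, the p-values reflect only how far these arrays differ, and that spread may be technical.

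Before any result, 2 facts about the tables bear on every value. A table of probe signals and a table of log2 values (the value table) were deposited for the same arrays, and their VP changes were nearly uncorrelated over the 9696 genes, with Pearson's r of -0.073 in AGS and -0.11 in MKN45 (genes are not independent replicates). The lines also stood apart less in the signals than in the value table. With DMSO, MET, the receptor gene known to be amplified in MKN45, was 0.22 higher on the log2 scale on the arrays labelled MKN45 in the signals, against 3.72 in the value table. CEACAM5, an adhesion molecule known to be high in MKN45, was 1.19 and 4.53 higher, and CDH1, the E-cadherin gene known to be lost in AGS, 0.83 and 3.83 higher. Over the same genes, 26 were more than 4-fold apart between the lines by the signals, against 109 by the value table. In the signals the lines therefore stand here for the arrays labelled AGS and the arrays labelled MKN45. All 5 epithelial markers (KRT8, KRT18, KRT19, EPCAM and CDH1) were detected on 12 arrays, and of 8 markers of leukocytes, fibroblasts and endothelium 1, CD68, was, while the other 7 were detected on at most 3 arrays. Median signals per array were 98.4 to 137 and 14523 to 16571 probes were detected per array.

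**Figure D1:**
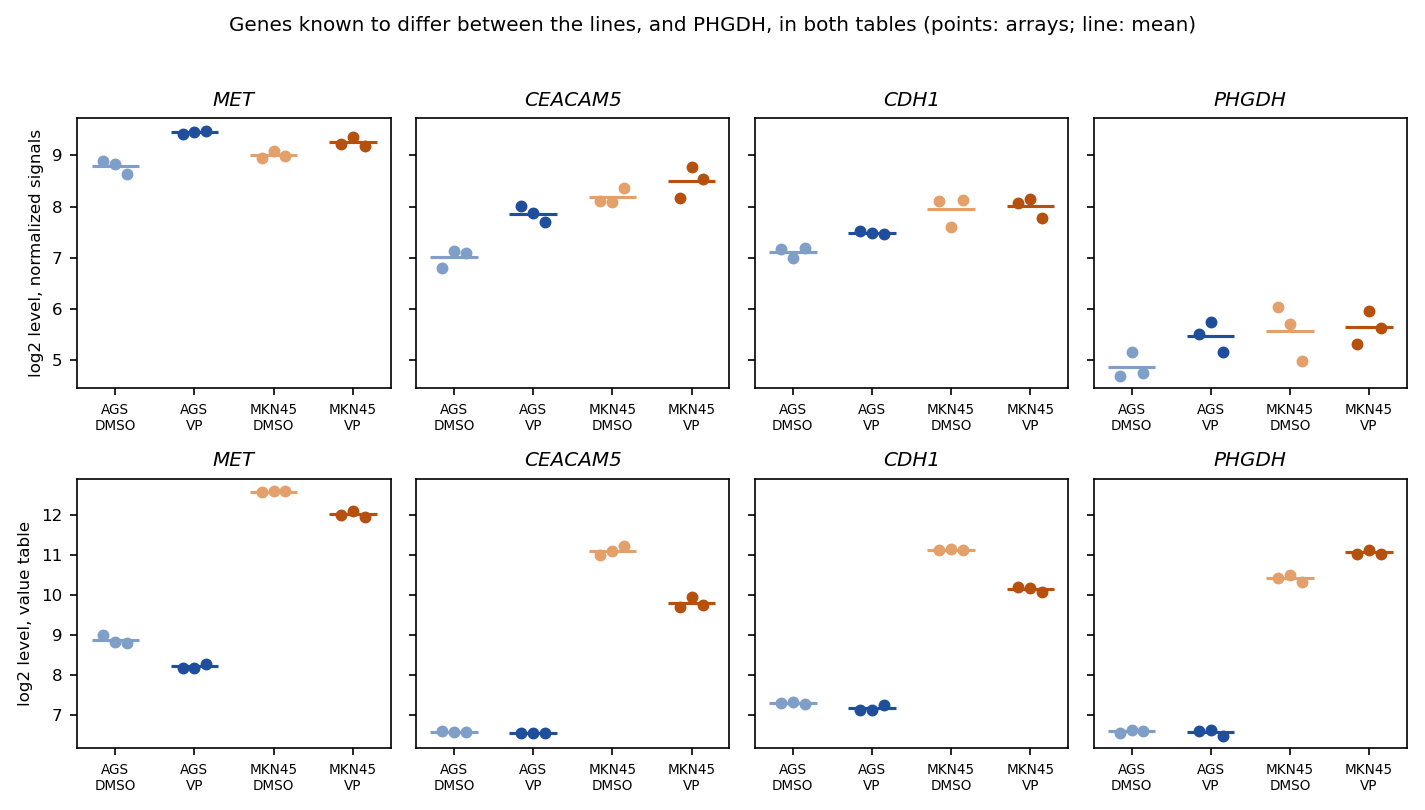
Log2 levels of MET, CEACAM5, CDH1 and PHGDH in each array (points) and group means (lines), in the normalized probe signals (top) and in the value table (bottom), for AGS and MKN45 with DMSO and VP. In the value table the arrays of the lines are far apart for each of the 4 genes, with PHGDH 3.83 higher in MKN45 with DMSO, while in the signals MET differs by 0.22.

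The start regions of 6 of the 10 members (PHGDH, PSAT1, SHMT1, MTHFD2, MTHFD1L and ALDH18A1) were matched in the RefSeq table of promoters (GRCh38.p14), and 4 of them are shown here since these genes carry the main contrasts below: PSAT1 and MTHFD2 rose in both lines, PHGDH rose in one table and MTHFD1L turned with line and table. Each line gives the 250 bases before the listed start, on the strand of the gene. They lie at chr1:119711684-119711933 (PHGDH), chr9:78296875-78297124 (PSAT1), chr2:74198365-74198614 (MTHFD2) and chr6:150866236-150866485 (MTHFD1L), all on the plus strand. The start listed for MTHFD1L lies inside the RefSeq span of the gene. Capitals mark the motifs found.
PHGDH: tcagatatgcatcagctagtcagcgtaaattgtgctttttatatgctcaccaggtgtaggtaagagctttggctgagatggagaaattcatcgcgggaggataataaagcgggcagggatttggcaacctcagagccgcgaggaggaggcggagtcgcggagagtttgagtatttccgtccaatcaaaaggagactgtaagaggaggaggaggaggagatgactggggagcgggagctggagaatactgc
PSAT1: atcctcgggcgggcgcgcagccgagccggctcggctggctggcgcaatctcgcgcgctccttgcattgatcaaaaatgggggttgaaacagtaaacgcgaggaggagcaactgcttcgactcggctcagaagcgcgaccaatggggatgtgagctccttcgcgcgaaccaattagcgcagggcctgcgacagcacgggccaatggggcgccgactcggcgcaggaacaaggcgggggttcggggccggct
MTHFD2: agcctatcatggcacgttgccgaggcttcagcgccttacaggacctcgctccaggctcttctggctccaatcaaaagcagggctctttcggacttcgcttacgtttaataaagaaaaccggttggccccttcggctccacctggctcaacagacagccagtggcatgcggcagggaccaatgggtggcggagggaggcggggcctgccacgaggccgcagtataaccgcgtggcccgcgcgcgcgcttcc
MTHFD1L: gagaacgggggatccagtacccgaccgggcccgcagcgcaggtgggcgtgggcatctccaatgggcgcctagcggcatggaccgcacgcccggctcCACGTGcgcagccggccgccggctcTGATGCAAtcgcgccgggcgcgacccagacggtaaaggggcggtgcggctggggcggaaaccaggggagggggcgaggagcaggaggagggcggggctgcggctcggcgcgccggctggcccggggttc
Both strands of the whole listed windows, 250 bases before to 50 after the start, were searched for 3 motifs. TGATGNAA, the composite element of C/EBP and ATF factors, was in 1 of 6 members, MTHFD1L, where TGATGCAA begins 129 bases before the start, and in 3.67% of 27305 promoters. CACGTG, the E-box, was in 2 of 6, MTHFD1L and ALDH18A1, and in 7.43% of all promoters. TGACNNNGC, the core of the antioxidant response element, was in 1 of 6, MTHFD2, past the stretch shown, and in 13.6% of all promoters. A match describes the letters of a window and not a site, and the windows of PHGDH and PSAT1 held none of the 3.

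In the signals, VP raised 6 of the 8 tested members in AGS (PSAT1, PSPH, MTHFD2, PYCR1, SHMT2 and MTHFD1L) and lowered 1, SHMT1, while ALDH18A1 did not pass the test. In MKN45 it raised 3 (PSPH, PSAT1 and MTHFD2) and lowered 1, MTHFD1L. These calls come from limma on normalized log2 signals with p-values adjusted by Benjamini-Hochberg over all 9696 genes, at 0.05. Of all genes, 26.3% were called higher and 30.0% lower with VP in AGS, and 22.9% higher and 23.1% lower in MKN45. The median log2 change of the tested members was 0.91 in AGS and 0.18 in MKN45, beside -0.03 and -0.02 over all genes. In RNA from whole cultures a change in each cell and a change in which cells are present cannot be told apart. PSAT1, PSPH and MTHFD2 were called higher in both lines, as were 16.9% of all genes. The VP arrays all lay above the DMSO arrays for 6 members in AGS and 3 in MKN45, as they did for 28.7% and 27.2% of all genes, and all below for SHMT1 in AGS and ALDH18A1 in MKN45, as for 32.8% and 27.4%. When arrays were scaled by their medians instead of quantiles, the median change of all genes moved to 0.15 in AGS and 0.27 in MKN45, and the share of called genes that were higher from 46.7% to 70.3% and from 49.8% to 84.8%. The members called were then 6 higher and 0 lower in AGS, where SHMT1 was lost. In MKN45 they were 5 higher and 0 lower, where SHMT2 and PYCR1 were added and MTHFD1L was lost. Of all 9696 genes, 2972 were then called higher and 1255 lower in AGS, and 3365 and 601 in MKN45.

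**Figure D2:**
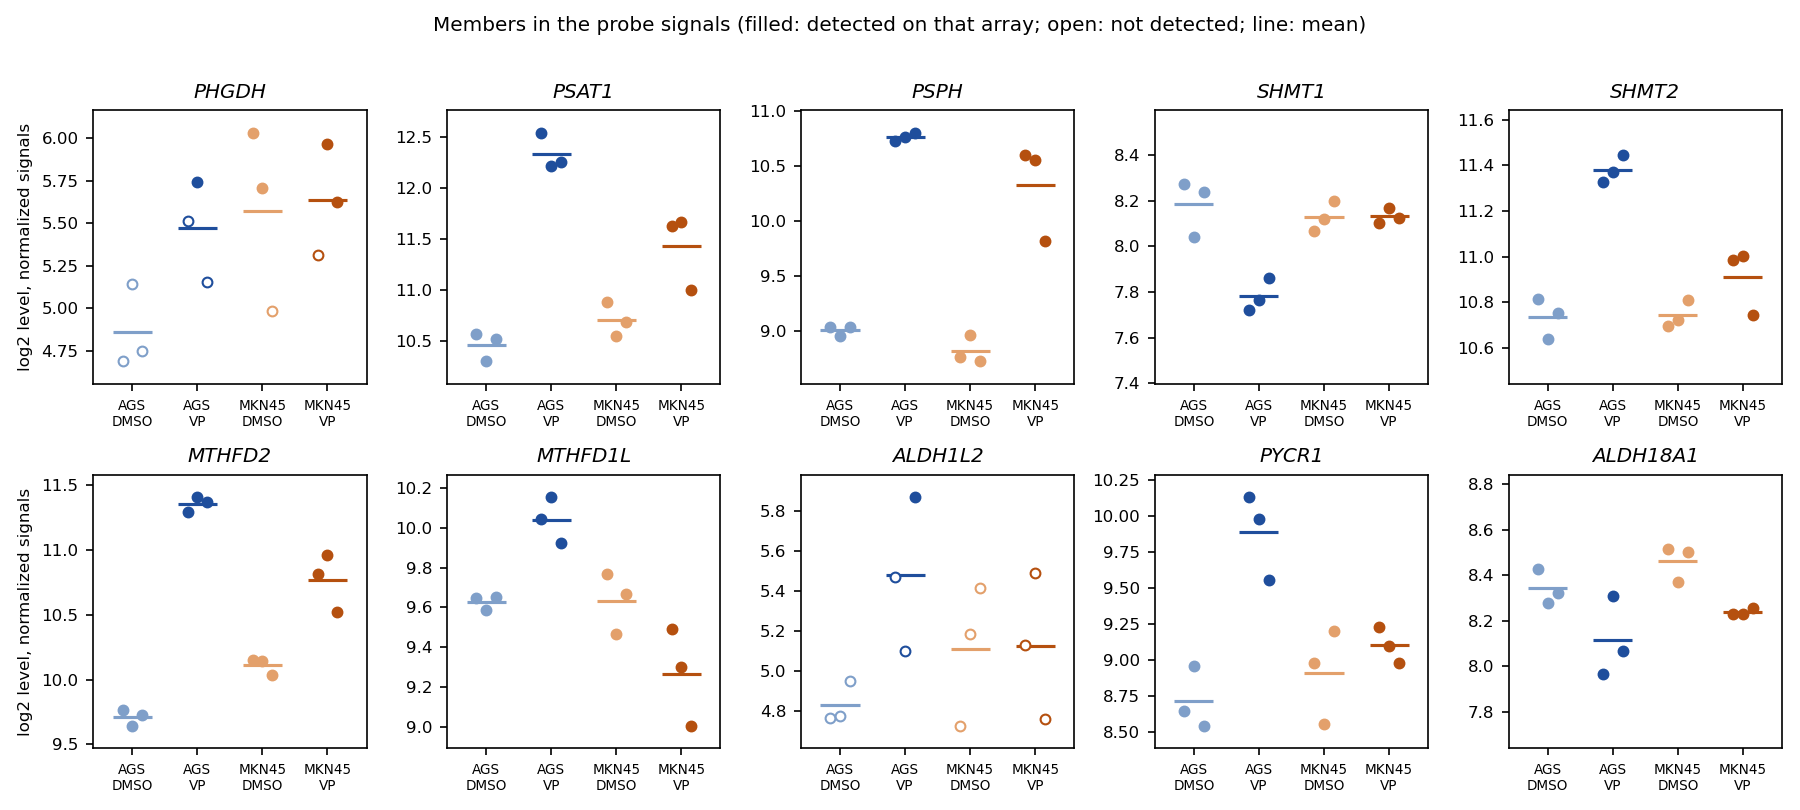
Log2 level of each member in the normalized probe signals, with 1 panel a gene (its brightest probe), each array as a point (filled where the probe was detected, open where not) and group means as lines. PSAT1, PSPH and MTHFD2 lie higher with VP than with DMSO on every array of both lines, and the y axes differ between panels.

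The 6 members called higher in AGS in the signals were called higher in AGS in the value table too and 1, ALDH18A1, was lower, with 16.1% of all genes called higher and 14.1% lower. In MKN45 4 were higher (PSAT1, MTHFD2, MTHFD1L and PYCR1) and 0 lower with limma, with 11.0% and 10.7% of all genes called. At an unadjusted p under 0.05 the counts in MKN45 were 5 and 0, with SHMT1 the added gene (0.16, SE 0.059, adjusted p = 0.0542). The methods name a random variance t-test, which was not run here. By an ordinary t-test, which takes the spread of each gene alone, the counts in MKN45 were 3 and 0 after adjustment. In AGS that test kept 3 of the 7 calls and lost PSPH, MTHFD1L, PYCR1 and ALDH18A1 (adjusted p = 0.0996 to 0.124). Of all genes it called 1235 in AGS and 977 in MKN45 after adjustment, in either direction. The VP arrays all lay above the DMSO arrays for 6 members in AGS and 5 in MKN45, beside 22.2% and 20.4% of all genes, and all below for 1 and 0, beside 18.2% and 16.7%. The median change of the members was 0.30 in AGS and 0.23 in MKN45, beside 0.02 and 0.01 over all genes. PSAT1 and MTHFD2 were called higher in both lines of both tables, which was true of 62 of the 9696 genes, or 0.639%. Names and levels in the value table fall out of step past row 21197 of the order of the signals, where 14 of the 16 probes and 8 of the 10 members lie. Its values are given here with each level past that row assigned to the probe of the next row, and with the names as deposited only 4 members would be called in AGS and 1 in MKN45. The lines were normalized separately in that table, so its levels are not tested between lines.

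**Figure D3:**
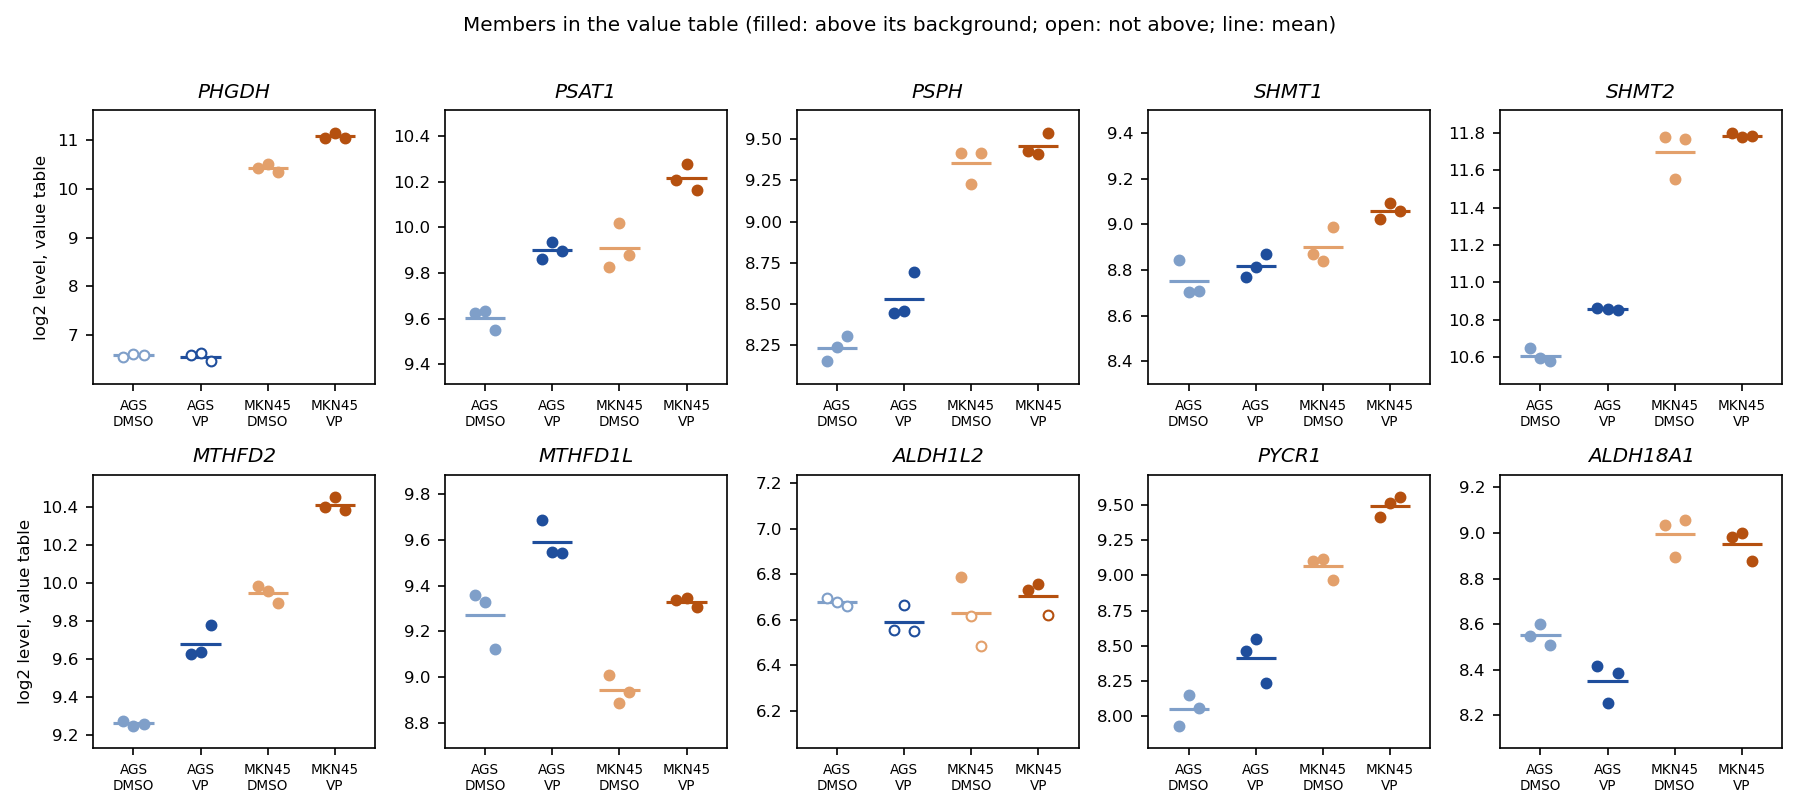
Log2 level of each member in the value table, for the same probes, each array as a point (filled where above the background of that table, open where not) and group means as lines. MTHFD2, MTHFD1L, PSAT1 and PYCR1 lie higher with VP on every array of both lines, and PHGDH is above background in MKN45 only.

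PHGDH, which commits 3-phosphoglycerate to serine, was close to background in the signals. Its probe was detected on 0 of 3 arrays of AGS with DMSO, 1 of AGS with VP, 2 of MKN45 with DMSO and 2 of MKN45 with VP, so it did not pass the filter there. With no filter on dim probes its values in the signals were 0.61 in AGS (SE 0.254, limma adjusted p = 0.105) and 0.06 in MKN45 (SE 0.254, adjusted p = 0.92). Its log2 levels in the value table were 6.54, 6.62 and 6.60 in AGS with DMSO and 6.59, 6.63 and 6.47 with VP, none of them above the background of that table. In MKN45 they were 10.43, 10.50 and 10.34 with DMSO and 11.04, 11.14 and 11.04 with VP. The MKN45 arrays with VP all lay above those with DMSO. Under a filter taken from that table's own background, chosen after seeing the data and leaving 10925 genes, PHGDH rose by 0.65 in MKN45 (SE 0.060, limma adjusted p = 7.17e-09). This was the 14th largest rise of 10925, and 10.6% of those genes were called higher. The change fitted for AGS under that filter was -0.03 (95% interval -0.15 to 0.10), and it is not read, since both groups were below background.

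PSAT1, the aminotransferase of the second step, was called higher by limma in both lines and in both tables. In the signals its log2 levels were 10.57, 10.31 and 10.52 in AGS with DMSO and 12.53, 12.21 and 12.25 with VP. They were 10.88, 10.55 and 10.68 in MKN45 with DMSO and 11.62, 11.66 and 11.01 with VP, so that the groups did not overlap in either line. The rise was 1.87 in AGS (SE 0.165, 3.65-fold, limma adjusted p = 7.37e-07) and 0.73 in MKN45 (SE 0.165, 1.65-fold, adjusted p = 0.00284). Leaving out each array in turn gave a rise in MKN45 of 0.61 to 0.94 (limma adjusted p at most 0.018). The largest was without replicate 3 of MKN45 with VP, the lowest of its group. The value table gave 9.62, 9.63 and 9.55 in AGS with DMSO and 9.86, 9.94 and 9.90 with VP, and 9.83, 10.02 and 9.88 in MKN45 with DMSO and 10.21, 10.28 and 10.16 with VP. The groups did not overlap there either, and PSAT1 rose by 0.30 in AGS (SE 0.059, adjusted p = 0.000414) and by 0.31 in MKN45 (SE 0.059, adjusted p = 0.000376). By the ordinary t-test after adjustment the rise in MKN45 did not pass in the signals (adjusted p = 0.0862) or in the value table (adjusted p = 0.0697). The other probe of PSAT1 was detected on 0 of 12 arrays.

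PSPH, the phosphatase that releases serine, rose in both lines of the signals. Its log2 levels were 9.03, 8.95 and 9.03 in AGS with DMSO and 10.73, 10.77 and 10.80 with VP, and 8.76, 8.96 and 8.72 in MKN45 with DMSO and 10.60, 10.55 and 9.82 with VP. Every VP array lay above every DMSO array of its line, and replicate 3 of MKN45 with VP was again the lowest of its group. The rise was 1.76 in AGS (SE 0.164, 3.39-fold, adjusted p = 1.18e-06) and 1.51 in MKN45 (SE 0.164, 2.85-fold, adjusted p = 8.65e-06). A second probe of PSPH was detected on all arrays with VP and on none with DMSO. Set against the lowest signal among detected probes, it was at least 1.95-fold higher with VP in AGS and at least 1.81-fold higher in MKN45. That probe passed the filter only through the groups with VP, so these bounds are a description and no separate support for the rise. The mean of that probe in the value table was 6.72 with DMSO and 6.73 with VP in AGS. In MKN45 it was 7.065 with DMSO and 7.069 with VP, above the background of that table on 3 of 3 arrays of each group. The levels of PSPH in the value table went from 8.15, 8.24 and 8.30 to 8.45, 8.46 and 8.69 in AGS, a rise of 0.30 (SE 0.070, adjusted p = 0.00188). In MKN45 they were 9.42, 9.23 and 9.42 with DMSO and 9.43, 9.41 and 9.54 with VP, which overlapped, with a difference of 0.10 (95% interval -0.04 to 0.25, adjusted p = 0.339).

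SHMT1, the cytosolic enzyme that turns serine into glycine, was the single member called lower in AGS by the signals. Its log2 levels in the signals were 8.27, 8.04 and 8.24 with DMSO and 7.72, 7.77 and 7.86 with VP, without overlap, and the fall was -0.40 (SE 0.094, adjusted p = 0.00239). In MKN45 they were 8.07, 8.12 and 8.20 with DMSO and 8.10, 8.17 and 8.12 with VP, and the difference was 0.00 (95% interval -0.20 to 0.21, adjusted p = 0.979). The other readings of the gene did not pass. Both dimmer probes of SHMT1 gave 0.05 (SE 0.136, adjusted p = 0.778) and 0.09 (SE 0.228, adjusted p = 0.765) in AGS. Their mean log2 levels in AGS with DMSO were 6.01 and 5.62, against 8.18 for the main probe. The second was detected on 2 of 3 arrays of each AGS group and passed the filter only through MKN45 with VP. Its value is therefore a description. The value table gave 0.07 (SE 0.059, adjusted p = 0.42), and median scaling gave -0.17 (adjusted p = 0.484).

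SHMT2, the mitochondrial counterpart, which loads the folate that the next enzymes use, rose in AGS in both tables. Its log2 levels in the signals were 10.81, 10.64 and 10.75 with DMSO and 11.32, 11.37 and 11.44 with VP in AGS, a rise of 0.64 (SE 0.099, 1.56-fold, adjusted p = 9.03e-05). In MKN45 they were 10.70, 10.72 and 10.81 with DMSO and 10.98, 11.00 and 10.74 with VP, where replicate 3 with VP lay among the DMSO arrays and the difference was 0.17 (95% interval -0.04 to 0.38, adjusted p = 0.18). The value table had SHMT2 at 10.65, 10.59 and 10.58 with DMSO and 10.86, 10.86 and 10.85 with VP in AGS, a rise of 0.25 (SE 0.060, adjusted p = 0.00242). Its value in MKN45 was 0.09 (SE 0.060, adjusted p = 0.351). Under median scaling SHMT2 passed in MKN45 as well (0.47, adjusted p = 0.0399).

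MTHFD2, the mitochondrial folate dehydrogenase that is low in most adult tissues and high in dividing cells, rose in both lines of both tables. Signals of MTHFD2 gave log2 levels of 9.76, 9.64 and 9.72 in AGS with DMSO and 11.29, 11.41 and 11.37 with VP. They were 10.15, 10.14 and 10.04 in MKN45 with DMSO and 10.82, 10.96 and 10.52 with VP. The groups were well apart in both lines. The rise was 1.65 in AGS (SE 0.110, 3.13-fold, adjusted p = 5.69e-08) and 0.66 in MKN45 (SE 0.110, 1.58-fold, adjusted p = 0.000303). The rise in the value table was 0.42 in AGS (SE 0.057, adjusted p = 2.48e-06), from 9.28, 9.25 and 9.26 with DMSO to 9.62, 9.64 and 9.78 with VP. In MKN45 it was 0.46 (SE 0.057, adjusted p = 9.15e-07), from 9.98, 9.96 and 9.90 to 10.40, 10.45 and 10.38. MTHFD2 was among the larger rises of the value table, in place 70 in AGS and 45 in MKN45 of 9696 genes, and in place 209 and 987 in the signals.

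MTHFD1L, the mitochondrial synthetase that releases formate, moved in opposite directions in the lines of the signals and upwards in both lines of the value table. In the signals its log2 levels were 9.65, 9.59 and 9.65 in AGS with DMSO and 10.04, 10.15 and 9.92 with VP, a rise of 0.41 (SE 0.125, adjusted p = 0.0127). Without replicate 2 of AGS with VP the rise was 0.36 and no longer passed (adjusted p = 0.054). In MKN45 the levels were 9.77, 9.47 and 9.67 with DMSO and 9.49, 9.30 and 9.01 with VP, where the groups overlapped and the fall was -0.37 (SE 0.125, adjusted p = 0.0283). That call was lost without replicate 1 or 3 of MKN45 with DMSO or replicate 2 or 3 of MKN45 with VP (adjusted p = 0.0574 to 0.133), with a value of -0.24 without the last. It was also lost under median scaling (-0.01, adjusted p = 0.973) and with no filter on dim probes (adjusted p = 0.0549). The same held with each line fitted alone (adjusted p = 0.0604) and by the ordinary t-test (adjusted p = 0.169). The value table had MTHFD1L at 9.36, 9.33 and 9.12 in AGS with DMSO and at 9.69, 9.55 and 9.54 with VP. There it rose by 0.32 in AGS (SE 0.064, adjusted p = 0.000382) and by 0.39 in MKN45 (SE 0.064, adjusted p = 6.39e-05), where all arrays with VP (9.34, 9.35 and 9.31) lay above those with DMSO (9.01, 8.89 and 8.94).

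ALDH1L2, which oxidises formyl folate in mitochondria, was detected on 1 of 12 arrays, replicate 3 of AGS with VP. It was above the background of the value table on 1 of 3 arrays of MKN45 with DMSO, 2 of 3 with VP and on none of AGS, so it passed no filter. Fitted with no filter on dim probes, over 20046 genes, its value in AGS was 0.65 in the signals (SE 0.224, limma adjusted p = 0.0492), where 0 of 3 arrays with DMSO and 1 of 3 with VP were detected, and -0.09 in the value table (adjusted p = 0.487). Since both groups of AGS were mostly or wholly below background, ALDH1L2 is not read as changed.

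PYCR1, the reductase that completes proline, rose in AGS in both tables and in MKN45 in the value table. In the signals its log2 levels were 8.65, 8.96 and 8.55 in AGS with DMSO and 10.13, 9.98 and 9.56 with VP, a rise of 1.17 (SE 0.177, 2.25-fold, adjusted p = 8.35e-05). Both dimmer probes of PYCR1 were detected on 1 of 3 arrays of AGS with DMSO and on 3 of 3 with VP, and no change is given for them. In MKN45 the levels were 8.98, 8.56 and 9.20 with DMSO and 9.23, 9.10 and 8.99 with VP, which overlapped, and the difference was 0.19 (95% interval -0.19 to 0.57, adjusted p = 0.405). Under median scaling PYCR1 passed in MKN45 (0.54, adjusted p = 0.016). The value table had PYCR1 at 7.93, 8.15 and 8.06 in AGS with DMSO and at 8.46, 8.55 and 8.23 with VP. There it rose by 0.37 in AGS (SE 0.074, adjusted p = 0.000379) and by 0.43 in MKN45 (SE 0.074, adjusted p = 8.63e-05), where it went from 9.11, 9.12 and 8.97 with DMSO to 9.42, 9.52 and 9.56 with VP.

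ALDH18A1, the enzyme of the first step of proline synthesis, was not called higher in either table. In the signals its log2 levels in AGS were 8.43, 8.28 and 8.32 with DMSO and 7.97, 8.31 and 8.07 with VP (-0.23, SE 0.102, adjusted p = 0.0735). Without replicate 2 of AGS with VP the value was -0.33 and was called lower (limma adjusted p = 0.0197). In MKN45 the levels were 8.51, 8.37 and 8.50 with DMSO and 8.23, 8.23 and 8.26 with VP. There the arrays did not overlap but the difference of -0.22 did not pass (SE 0.102, adjusted p = 0.0916). The ordinary t-test after adjustment called that difference lower (adjusted p = 0.0359), and under median scaling its sign turned (0.12, adjusted p = 0.647). The value table had ALDH18A1 at 8.55, 8.60 and 8.51 in AGS with DMSO and at 8.42, 8.26 and 8.38 with VP, and the fall was -0.20 (SE 0.061, adjusted p = 0.0159), a call lost without replicate 2 of AGS with DMSO (adjusted p = 0.0643) or replicate 2 of AGS with VP (adjusted p = 0.104). The value in MKN45 was -0.04 (95% interval -0.17 to 0.08, adjusted p = 0.682).

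**Figure D4:**
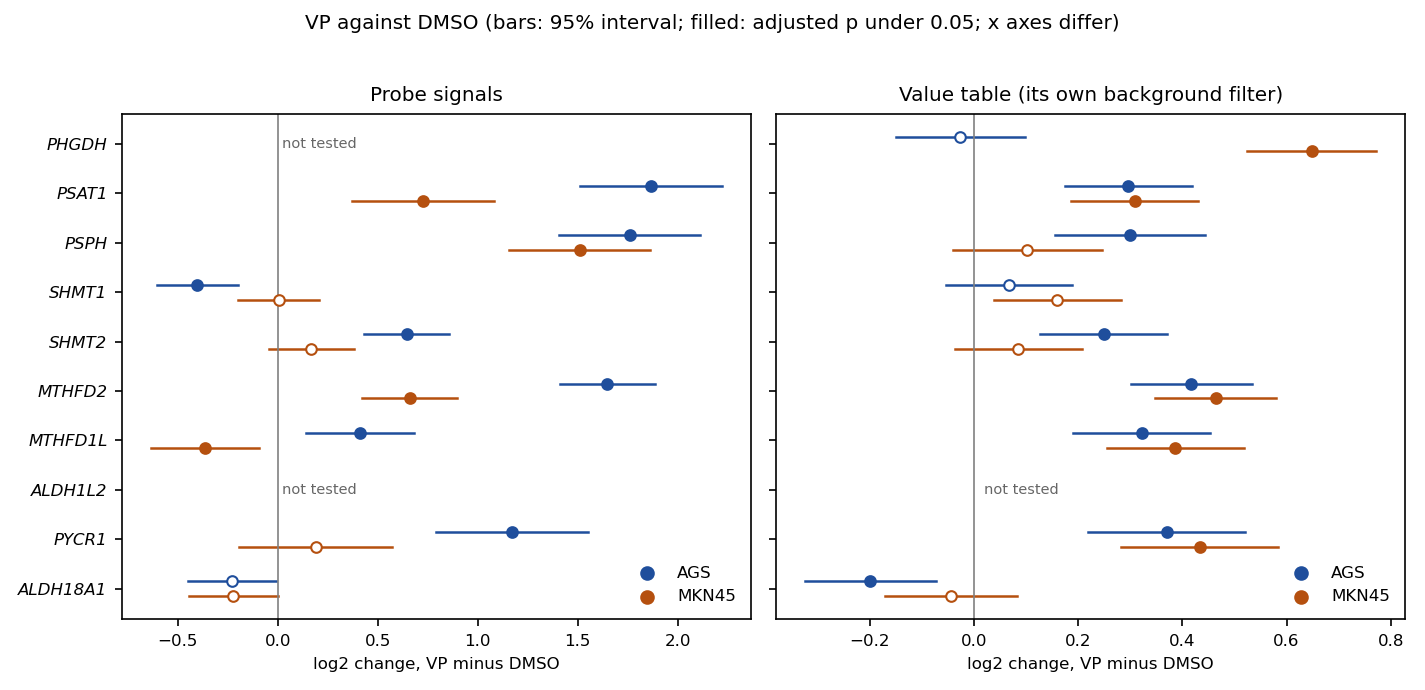
Log2 change with VP against DMSO (x axis, with different ranges in the panels) for each member in AGS (blue) and MKN45 (orange), in the signals (left) and the value table under the filter from its own background (right). Bars are 95% intervals from limma and filled points passed the adjusted p of 0.05. In the signals PSAT1 rises by 1.87 in AGS and 0.73 in MKN45, and PHGDH in the value table rises by 0.65 in MKN45. The PHGDH point for AGS comes from arrays that were all below background and is not read.

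Whether the lines responded differently was tested on the difference of the changes, MKN45 minus AGS. In the signals 5 of 8 members had a lower change in MKN45 than in AGS, and 5.46% of all genes were called in that direction. The differences were -1.14 for PSAT1 (SE 0.234, adjusted p = 0.00839), -0.99 for MTHFD2 (SE 0.156, adjusted p = 0.00204), -0.78 for MTHFD1L (SE 0.177, adjusted p = 0.0148), -0.98 for PYCR1 (SE 0.251, adjusted p = 0.0236) and -0.48 for SHMT2 (SE 0.139, adjusted p = 0.0429). The call for SHMT2 was lost when any of 11 of the 12 arrays was left out (adjusted p = 0.0542 to 0.0908) and held without replicate 2 of MKN45 with VP. Under median scaling the call for PSAT1 alone was kept, and those for MTHFD2 (-0.80, adjusted p = 0.0753), PYCR1 (-0.82, adjusted p = 0.0551), MTHFD1L (-0.62, adjusted p = 0.193) and SHMT2 (-0.29, adjusted p = 0.588) were lost. The call for PYCR1 was also lost without replicate 1 or 3 of AGS with DMSO, replicate 1 or 2 of AGS with VP, replicate 3 of MKN45 with DMSO or replicate 3 of MKN45 with VP (adjusted p = 0.051 to 0.0637). For PSPH the difference was -0.25 (95% interval -0.75 to 0.25, adjusted p = 0.506). None, 0 of the 8, passed with limma in the value table and 0 had an unadjusted p under 0.05, where 11.7% of all genes passed in either direction. Their differences lay between -0.20 for PSPH and 0.15 for ALDH18A1, and those of PSAT1 and MTHFD2 were 0.01 (95% interval -0.16 to 0.18) and 0.05 (95% interval -0.12 to 0.21). Under the filter from that table's own background the fitted difference for PHGDH was 0.67 (adjusted p = 3.85e-06, with 6.38% of genes called in that direction), but its AGS arrays were all below background.

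With DMSO, 1 of the 8 members differed between the arrays of the line labels in the signals. MTHFD2 was 0.40 higher in MKN45 (SE 0.110, adjusted p = 0.0219), with 8.15% of all genes called higher there and 10.3% lower. That call was lost without replicate 2 or 3 of AGS or replicate 1 or 2 of MKN45 (adjusted p = 0.0532 to 0.0682). The other 7 lay between -0.19 for PSPH and 0.24 for PSAT1. As the line labels were less distinct in the signals than in the value table, as given above for MET, these differences are between arrays by label.

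The 5 lists around the members are given by their counts and medians, which are descriptions beside the shares of all genes called with VP (in the signals 26.3% higher and 30.0% lower in AGS and 22.9% and 23.1% in MKN45, and 16.1% and 14.1%, and 11.0% and 10.7%, in the value table). Of 20 genes of folate use and glycine cleavage 13 were tested, of which 5 were higher and 6 lower with VP in AGS, and 4 and 6 in MKN45, with median changes of -0.21 and -0.19. AMT, a subunit of the glycine cleavage system, rose by 1.12 in AGS and 1.31 in MKN45. GART, of purine synthesis, rose by 0.98 and 0.46, while TYMS, thymidylate synthase, fell (-1.17 and -0.55). None of these 3 passed in the value table, where 1 gene of the list was higher and 3 lower in AGS, and 1 and 1 in MKN45. The medians of this list there were 0.07 in AGS and 0.02 in MKN45, beside 0.02 and 0.01 over all genes.

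Of 11 genes of the methionine cycle and transsulfuration 8 were tested, with 3 higher and 3 lower in AGS, and 3 and 2 in MKN45, and medians of -0.06 and 0.23. CTH, which makes cysteine, rose in both tables, by 3.59 in AGS and 2.37 in MKN45 in the signals (limma adjusted p = 2.42e-08 and 1.88e-06) and by 0.21 and 0.37 in the value table (limma adjusted p = 0.00816 and 3.45e-05). CBS, which joins homocysteine to serine, rose by 0.90 and 0.95 in the signals, and MAT2A, which makes S-adenosylmethionine, fell (-1.04 and -1.62). By the value table CTH was the 1 gene called in AGS, and in MKN45 2 were higher and 2 lower, with medians of -0.0025 and 0.032.

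Of 10 genes around proline and glutamate 5 were tested, with 1 higher and 2 lower in AGS, and 1 and 3 in MKN45, and medians of -0.21 and -0.44. GLUD1, glutamate dehydrogenase, rose by 0.62 and 0.66, whereas PRODH, which breaks proline down, fell (-0.81 and -1.70), as did PYCR3, a relative of PYCR1 (-0.70 and -0.44). In the value table GLUD1, PRODH and PYCR3 did not pass in either line. With limma 1 of the 5 was higher there in each line, ALDH4A1 in AGS (0.18, adjusted p = 0.0173) and OAT in MKN45 (0.19, adjusted p = 0.0198). There 0 were lower, also at an unadjusted p under 0.05, and the medians were 0.09 in AGS and 0.09 in MKN45. Of 13 genes of serine uptake and use 10 were tested, with 5 higher and 2 lower in AGS, and 4 and 2 in MKN45, and medians of 0.44 and 0.36. SARS1, the seryl-tRNA synthetase, rose in both tables, by 1.49 and 0.45 in the signals and 0.29 and 0.37 in the value table. SRR, serine racemase, rose by 0.87 and 0.68 in the signals and did not pass in the value table. SLC38A2, a transporter of neutral amino acids, rose by 2.22 and 2.16 in the signals but fell in the value table (-0.73 and -0.62). There 1 gene of this list was higher and 4 lower in AGS, and 1 and 2 in MKN45, with medians of -0.11 and -0.03.

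Of 16 genes in the list of ATF4 and its known targets outside these pathways 14 were tested. In the signals 14 were higher in AGS and 12 in MKN45, with median changes of 1.71 and 1.46 beside -0.03 and -0.02 over all genes, and 0 were lower in either with limma, also at an unadjusted p under 0.05. ASNS, asparagine synthetase, rose by 3.67 and 2.52 in the signals and by 0.61 and 0.80 in the value table. SLC7A11, the cystine transporter, rose by 3.94 and 2.37 in the signals, while in the value table its change was 0.00 in AGS (adjusted p = 0.963) and it fell by 0.18 in MKN45 (adjusted p = 0.0315). CHAC1, which degrades glutathione, rose by 2.96 and 3.50 in the signals. By the value table CHAC1 rose by 0.25 in AGS and its value of 0.15 in MKN45 did not pass. There 9 of the 14 were higher and 1 lower in AGS, and 6 and 2 in MKN45, with medians of 0.24 and 0.16.

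**Figure D5:**
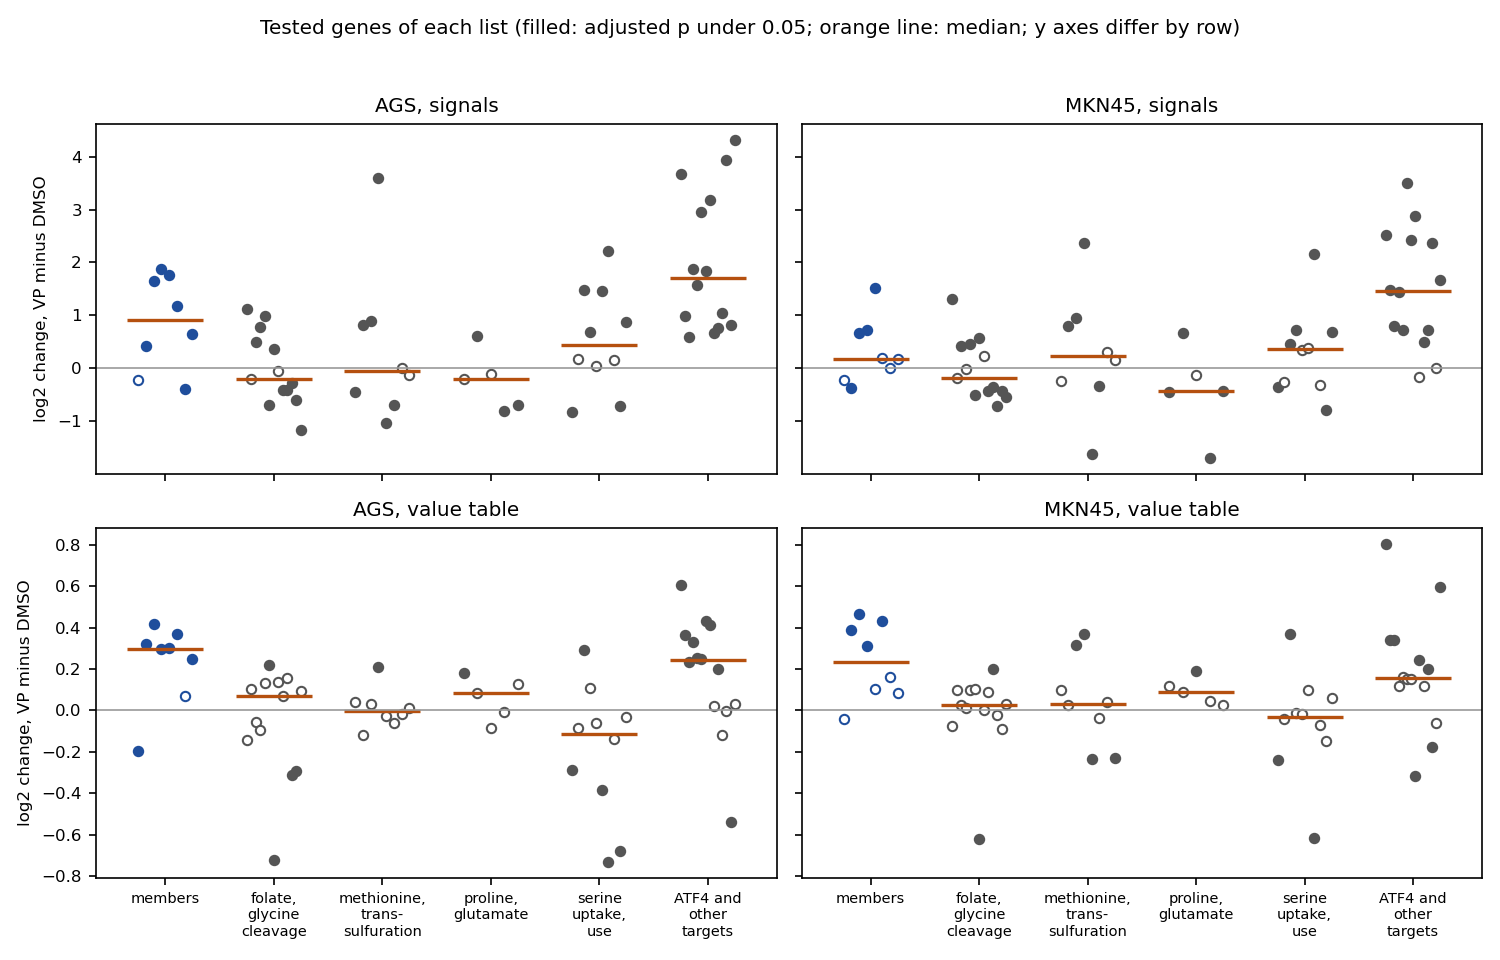
Log2 change with VP against DMSO (y axis, with different ranges in the rows) of each tested gene of the members and of the 5 other lists, in AGS and MKN45, in the signals (top) and the value table (bottom). Filled points passed the adjusted p of 0.05 and orange lines are medians, which for the ATF4 list are 1.71 in AGS and 1.46 in MKN45 in the signals.

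The levels of PSAT1, PSPH, SHMT2 and MTHFD2 were correlated over arrays that include the step from DMSO to VP. Within a group this was mixed. In AGS with VP, replicate 1 was the highest for PSAT1 (12.53) and the lowest for MTHFD2 (11.29), PSPH (10.73) and SHMT2 (11.32). In MKN45 with VP, replicate 3 was the lowest for each of these genes. Over the 12 arrays of the signals, centred within each line so that the points still share the step from DMSO to VP, Pearson's r was 0.98 for PSAT1 with MTHFD2, 0.97 for SHMT2 with MTHFD2 and 0.94 for PSPH with MTHFD2. The coefficient was 0.85 for PYCR1 with MTHFD2, 0.42 for MTHFD1L with MTHFD2, -0.81 for SHMT1 and -0.71 for ALDH18A1. The genes whose pattern was most like that of MTHFD2 by the same measure were TRIB3 (r = 0.996), a pseudokinase induced by ATF4, TCF12 (0.994) and MMP10 (0.991). TRIB3 changed by 4.31 in AGS and 1.66 in MKN45 in the signals. In the value table its change was 0.03 in AGS (limma adjusted p = 0.715) and 0.59 in MKN45 (limma adjusted p = 2.11e-08). Those most like PYCR1 were SULT2B1 (0.974), SHB (0.969) and HYI (0.959). No such genes are given for PHGDH, which was not tested in the signals. These correlations are descriptions over arrays that share their treatment step and carry no test.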

How the data were processed

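The authors deposited probe signals, which are linear intensity values from GenomeStudio with a detection p-value for each. They also deposited a value table, on a log2 scale and quantile normalized according to the methods. Whether background had been subtracted is not given in the sources used here. In the order of the signals, names and levels of the value table fall out of step past row 21197, and they were moved by 1 there. The last row of the table holds linear signals and was not used. Its sorted values were the same within a line to 0.001, with medians of 6.611 and 6.631, so the lines were normalized apart.

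Arrays were grouped by their labels. Signals were corrected by normexp with the background from the detection p-values (offset 16), quantile normalized over 12 arrays and log2 transformed (neqc, limma 3.58.1, R 4.3.3). The platform annotation gave 1 symbol to 30113 of the 47323 probes, several to 8 and none to 17202, and 16021 probes passed the detection filter. The brightest passing probe stood for a gene. One limma model of 4 groups gave each comparison, two-sided, adjusted by Benjamini-Hochberg over all genes. It was run on simulated data for VP against DMSO in AGS only, which does not cover the other comparisons. A bound for a probe undetected in a group used the lowest signal among detected probes as its level. The number of arrays limits the precision.

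Genes named besides the members were at most 3 of a list, those changed most in the same direction in both lines of the signals. The members and lists were chosen with earlier results of these data known. Alternatives changed the source, background correction, offset, scaling, filter, probe choice, block, test, threshold and arrays, and the filter from the value table's own background was added after seeing the data. Start regions came from RefSeq (GRCh38.p14). No protein sequences were used here.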

Additional observations from a re-analysis of the deposited data

Results flagged for a closer look

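In the signals the VP change of 5 members differed between the lines by a limma test of the difference itself, MKN45 minus AGS: -1.14 for PSAT1, -0.48 for SHMT2, -0.99 for MTHFD2, -0.78 for MTHFD1L and -0.98 for PYCR1. In the value table the same differences were 0.01 for PSAT1, -0.16 for SHMT2, 0.05 for MTHFD2, 0.06 for MTHFD1L and 0.06 for PYCR1, and none of these 5 passed. In the value table with its own background filter, the fitted difference for PHGDH was 0.67 (adjusted p = 3.85e-06), where its level in AGS was not above background on any of the 6 arrays, so the value is not read as a difference between the lines.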

How the results depend on the processing

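Leaving out each array in turn left 7 to 7 members called in AGS, 3 to 4 in MKN45, 3 to 5 for the difference between lines and 0 to 1 between lines with DMSO, with 6 to 7, 4 to 5 and 0 to 0 for the first 3 of these in the value table. The values that changed sign in doing so ranged over -0.027 to 0.039 for SHMT1 in MKN45, -0.39 to 0.00075 for the line difference of PSPH, -0.069 to 0.10 for that of ALDH18A1, -0.040 to 0.047 for SHMT2 and -0.062 to 0.087 for MTHFD1L between lines with DMSO, and in the value table -0.029 to 0.068 for the line difference of PSAT1 and -0.029 to 0.13 for that of PYCR1. None of these was called in either form. The 7 members called in AGS in the signals were not the same without replicate 2 of AGS with VP. There MTHFD1L was lost and ALDH18A1 was called lower. With the value table in place of the signals, SHMT1 in AGS was 0.068, MTHFD1L in MKN45 0.39, and the line differences 0.012 for PSAT1, 0.047 for MTHFD2, 0.065 for MTHFD1L and 0.063 for PYCR1, with 0 members called. Median scaling gave 0.12 for ALDH18A1 in MKN45, 0.096 for SHMT1 between lines with DMSO and 1 member for the difference between lines. No background correction gave -0.0012 for the line difference of ALDH18A1. The mean of all probes gave 0.12 for PSPH and 0.026 for SHMT1 between lines with DMSO. Members called for the difference between lines were 3 with no filter on dim probes and 3 at an unadjusted p under 0.001, where 0 were called between lines with DMSO. In the value table that difference had 1 member called with no filter on dim probes and 1 with its own background, in both cases PHGDH. With its names as deposited, 4 members were called in AGS and 1 in MKN45, and MTHFD2 in AGS was -0.036, PSAT1 in MKN45 -0.032, SHMT2 in MKN45 -0.038 and the line differences -0.060 for PSAT1 and -0.16 for SHMT1. The ordinary t-test is not the random variance t-test of the methods. By it, 4 members in AGS and 0 in MKN45 passed the methods' threshold in the signals, beside 1416 and 861 of 9696 genes. After Benjamini-Hochberg adjustment 7 and 3 passed, with 2 and 2, and 3 and 3, in the value table. The cause of these changes was not tested. Correlations of deviations between arrays of the same replicate number were -0.096 to 0.21 in the signals and -0.046 to 0.12 in the value table. Whether replicate numbers pair the arrays is not settled by these values. With a replicate block 7 members were called in AGS, 4 in MKN45 and 4 for the difference between lines. The last count lost SHMT2 (adjusted p = 0.0824) and stands beside 10% of all genes in either direction. With that block the counts in the value table were 7, 4 and 0. Each array was also set beside the 3 arrays of the other treatment of its line. In the signals 5 of 12 arrays were closest to their own number, and 7 of 12 in the value table. Signal over background limits PHGDH and ALDH1L2, and 3 arrays a group limit the rest.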
